A study of Mus musculus with 16 samples.

Results

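The genes described are Pax3, Pax7, Msx1, Msx2, Dlx5, Dlx3 and Foxd3, 7 transcription factor genes of the neural plate border. A region of accessible chromatin was counted to one of them when the nearest protein-coding transcription start site (TSS) lay within 100 kb and belonged to that gene. By this rule 76 of the 80585 consensus regions of the series were theirs, with 13 at Pax3, 17 at Pax7, 12 at Msx1, 13 at Msx2, 5 at Dlx5, 6 at Dlx3 and 10 at Foxd3. Accessibility was profiled by omni-ATAC, a form of ATAC-seq in which a transposase inserts adapters into open DNA, in 16 mouse libraries. The cells were embryonic stem cells (ESCs) on their way toward anterior neural progenitor cells (antNPCs) in N2B27 medium with bFGF. There were 8 groups of 2 libraries, and the 2 libraries of a group came from separate ESC lines of B6129S6F1 background. Tet1 KO cells (lines KO1 and KO15, Tet1<tm1Koh>) lack TET1, the enzyme that oxidises 5-methylcytosine, and Tet1 MUT cells (lines CM59 and CM69) carry a catalytic mutation put in by CRISPR HDR. WT cells were the lines WT70 and WT72. Libraries of KO, MUT and WT cells were made from day 3 and day 2 of the culture. The same pair of KO lines received the Wnt inhibitor XAV939 (XAV, 5 µM) and the WT lines WT7 and WT34 received the GSK3 inhibitor CHIR99021 (CHIR, 3 µM), which activates Wnt signalling, both from day 2 to day 3. The MUT lines are clones of the line WT7. The CHIR libraries come from other lines than the untreated WT libraries, so line and treatment cannot be told apart there, and no vehicle group is among the samples.

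The neural plate border is the strip of ectoderm between the future neural tube and the epidermis, and the neural crest, the placodes and the dorsal neural tube arise from it. Wnt, BMP and FGF signals turn on the border genes there, and TCF/LEF proteins carry the Wnt signal to DNA. The anterior neural plate, toward which these cells were driven, normally forms where Wnt signalling is kept low. Pax3 and Pax7 encode paired homeodomain factors, Msx1 and Msx2 homeodomain factors downstream of BMP, Dlx5 and Dlx3 distal-less homeodomain factors of the border and the placodes, and Foxd3 a forkhead factor of pluripotent cells and of premigratory crest.

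Each deposited peak carries a fold enrichment, the ratio of its summit to the local background, and the 50000 distinct peaks of a library that rank highest by the authors' −log10 p were kept. A region was open in a library when it overlapped a kept peak, and a deposited peak below that rank is called a weaker peak. The percentile is the rank of a fold enrichment among the kept peaks of the library, from 0 to 100, and is 0 where the region was not open. The lists held 161449 to 276451 peaks, their read depth is unknown, and the −log10 p at rank 50000 ranged from 6.84 to 21.8 between libraries, so an open state is a place in the ranking of 1 library and not a fixed signal. KO day 3 replicate 2 had the lowest value at that rank (6.84) and the fewest distinct peaks (135359), and KO day 2 replicate 1 the highest (21.8) and the most (219047). Of all regions, 61.4% to 65.1% were open per library, and of the 76 regions of the 7 genes 52.6% to 69.7%. Values of a group are given for replicate 1 and then replicate 2, and regions are named by gene and distance from its TSS, with a plus sign for downstream in the direction of transcription. Accessibility near a gene does not say whether that gene was transcribed.

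The regions that differed most between KO and CHIR-treated WT cells (4 libraries) and WT, MUT and XAV-treated KO cells (6 libraries) on day 3 are printed as 300-bp windows, because they hold the DNA behind the largest differences in mean percentile. A mean over the 4 libraries does not say that both KO and CHIR-treated cells differ, and the values per group follow with each gene. They are from the RefSeq GRCm38.p6 genome, whose coordinates are those of mm10, on the plus strand. Capitals mark matches on either strand to short runs that are typical of a factor family. For TCF/LEF these were the letters CTTTGAT and, as the other form, CTTTGAA. For SOX factors they were ACAAAG and, as the other form, ACAATG. TEAD was searched as GGAATG, OCT factors as ATTTGCAT, T-box factors as AGGTGTGA, forkhead factors as TGTTTAC, homeobox factors as TAATTA, ZIC factors as CAGCAGG, and AP-2 factors as GCCNNNGGC. For the factors of the GATA family the letters were AGATAAG. The TCF/LEF and SOX letters share a run but cannot match the same bases in full. Among the 80578 regions with a complete window, 10.9% held the TCF/LEF letters, 30.9% SOX, 18.4% TEAD, 2.0% T-box, 21% ZIC and 16.2% AP-2. The first 4 windows had a higher mean percentile over the KO and CHIR libraries, though Pax3+80.6kb and Foxd3-66.2kb were open in the CHIR libraries alone. Pax3+80.6kb (chr1:78116064-78116363) lies in an intron of Pax3 and holds none of these letters. Foxd3-66.2kb (chr4:99589942-99590241) is intergenic, with 2 SOX matches and 1 TEAD match. Pax7+35.5kb (chr4:139797373-139797672) lies in a Pax7 intron, with 1 match each to SOX, ZIC and AP-2. Pax7+79.1kb (chr4:139753728-139754027) lies in a Pax7 intron, with 1 SOX and 1 T-box match.
Pax3+80.6kb: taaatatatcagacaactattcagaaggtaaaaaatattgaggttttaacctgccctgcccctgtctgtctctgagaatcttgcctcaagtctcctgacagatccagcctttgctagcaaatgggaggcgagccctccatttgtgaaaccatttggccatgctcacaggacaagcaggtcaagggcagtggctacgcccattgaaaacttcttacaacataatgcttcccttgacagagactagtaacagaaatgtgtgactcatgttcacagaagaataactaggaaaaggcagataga
Foxd3-66.2kb: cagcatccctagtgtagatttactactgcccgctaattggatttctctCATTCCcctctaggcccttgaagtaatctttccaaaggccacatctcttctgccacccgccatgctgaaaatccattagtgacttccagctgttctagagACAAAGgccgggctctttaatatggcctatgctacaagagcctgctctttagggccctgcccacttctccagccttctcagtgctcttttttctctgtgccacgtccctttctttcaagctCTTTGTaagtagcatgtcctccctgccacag
Pax7+35.5kb: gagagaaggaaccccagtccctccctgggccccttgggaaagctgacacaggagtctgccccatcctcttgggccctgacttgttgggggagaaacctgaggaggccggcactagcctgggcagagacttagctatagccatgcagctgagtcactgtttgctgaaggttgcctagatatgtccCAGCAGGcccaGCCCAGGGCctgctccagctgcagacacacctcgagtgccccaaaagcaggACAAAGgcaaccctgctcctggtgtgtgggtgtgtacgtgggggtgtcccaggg
Pax7+79.1kb: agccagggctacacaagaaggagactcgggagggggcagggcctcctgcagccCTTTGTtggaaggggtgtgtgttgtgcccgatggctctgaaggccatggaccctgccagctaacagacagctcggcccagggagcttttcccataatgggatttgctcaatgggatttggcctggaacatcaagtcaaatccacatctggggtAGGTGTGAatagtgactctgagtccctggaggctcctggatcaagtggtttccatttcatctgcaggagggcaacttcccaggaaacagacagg

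The other 4 windows had a lower mean percentile over the KO and CHIR libraries. In Foxd3-14.0kb this came from the CHIR libraries, which were not open, while the KO libraries had percentiles of 64.8 and 75.5. Msx2-29.5kb (chr13:53502435-53502734) is intergenic and holds 1 SOX and 1 AP-2 match. Pax3+76.8kb (chr1:78119927-78120226) lies in a Pax3 intron and holds 1 TCF/LEF, 2 SOX and 1 ZIC match. Foxd3-14.0kb (chr4:99642147-99642446) is intergenic and holds 1 SOX match. Msx1-11.5kb (chr5:37835897-37836196) is intergenic and holds 1 ZIC match.
Msx2-29.5kb: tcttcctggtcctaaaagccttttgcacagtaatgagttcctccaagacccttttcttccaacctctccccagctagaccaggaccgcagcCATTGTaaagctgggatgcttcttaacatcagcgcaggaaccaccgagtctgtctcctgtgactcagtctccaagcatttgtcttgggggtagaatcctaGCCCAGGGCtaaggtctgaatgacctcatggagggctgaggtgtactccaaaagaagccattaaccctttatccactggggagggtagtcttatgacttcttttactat
Pax3+76.8kb: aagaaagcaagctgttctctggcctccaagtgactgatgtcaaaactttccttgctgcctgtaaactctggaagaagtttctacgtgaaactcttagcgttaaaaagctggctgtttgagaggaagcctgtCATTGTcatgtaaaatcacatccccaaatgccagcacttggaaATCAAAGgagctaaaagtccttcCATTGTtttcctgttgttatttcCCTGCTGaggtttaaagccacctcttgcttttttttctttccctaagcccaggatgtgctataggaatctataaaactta
Foxd3-14.0kb: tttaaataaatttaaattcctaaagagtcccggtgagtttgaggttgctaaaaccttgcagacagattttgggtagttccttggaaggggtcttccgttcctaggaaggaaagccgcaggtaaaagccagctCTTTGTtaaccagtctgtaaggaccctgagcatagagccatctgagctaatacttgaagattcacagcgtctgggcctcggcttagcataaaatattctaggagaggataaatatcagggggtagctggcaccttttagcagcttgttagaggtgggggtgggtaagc
Msx1-11.5kb: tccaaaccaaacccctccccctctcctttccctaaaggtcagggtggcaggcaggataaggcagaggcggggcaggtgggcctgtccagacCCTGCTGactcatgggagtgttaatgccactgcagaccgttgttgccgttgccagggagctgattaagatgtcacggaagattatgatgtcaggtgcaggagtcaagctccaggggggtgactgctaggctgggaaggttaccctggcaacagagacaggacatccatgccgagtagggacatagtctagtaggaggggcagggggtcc

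The regions of these genes were farther from a TSS and more variable than regions at large. Of the 76, 64 (84.2%) lay over 3 kb from the TSS, against 70.3% of all regions, and their median distance was 18767 bp, against 14273 bp. By the annotation of their middle, 52 were intergenic, 16 intronic and 8 exonic. Only 16 (21.1%) were open in all 16 libraries, against 33.6% of all regions, and the median region was open in 11 libraries, against 12. These shares describe the set and carry no test. In 6 regions a kept peak was shared with a neighbouring region, so their values are not separate measurements.

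**Figure D1:**
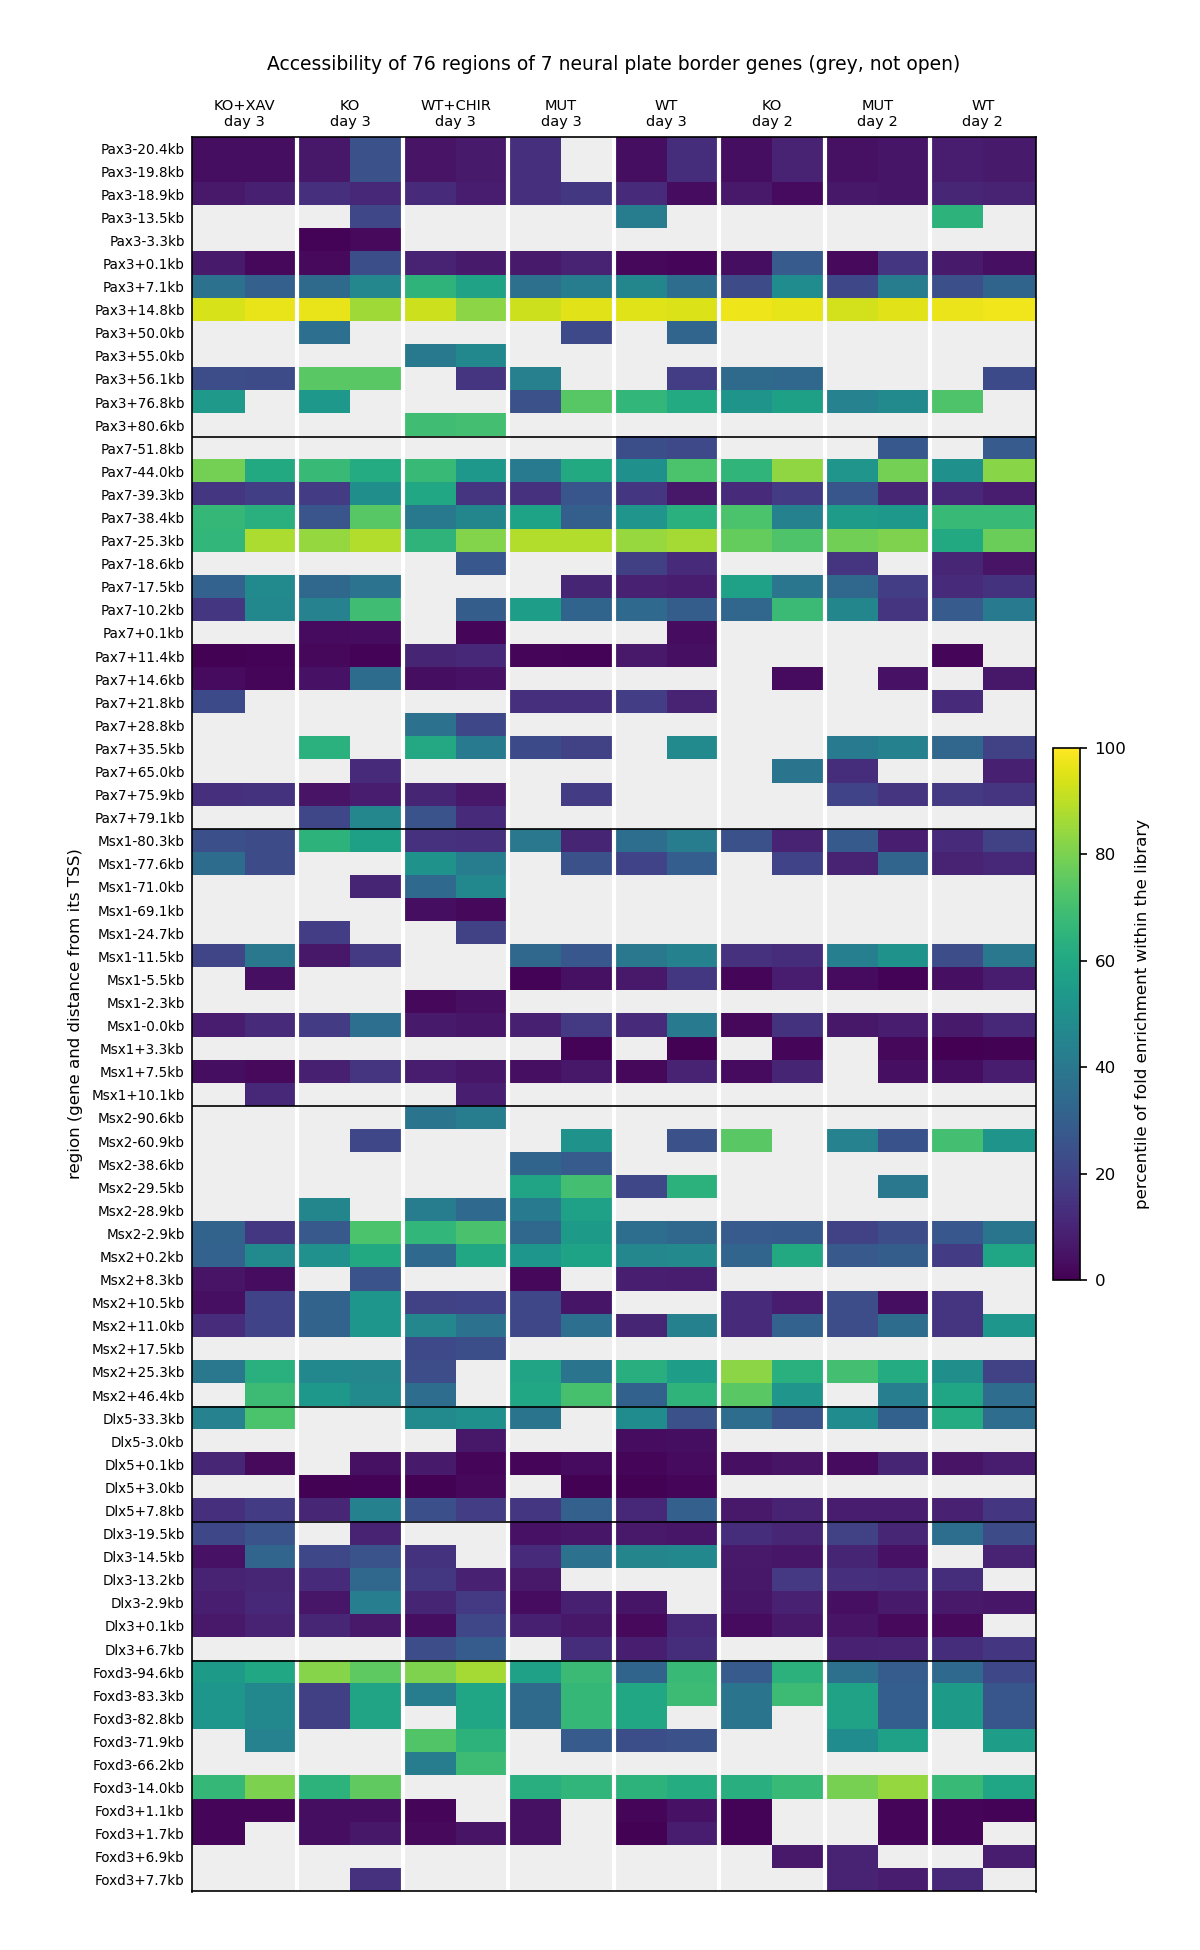
Percentile of fold enrichment (colour, 0 to 100) in the 76 regions of the 7 genes (rows, by gene and distance from the TSS) and 16 libraries (columns, 2 per group), with grey where a region was not open. Rows such as Pax3+14.8kb are open in all 16 libraries, while Pax3+80.6kb and Pax3+55.0kb are coloured in the 2 CHIR columns alone and Foxd3-14.0kb is grey in those 2 alone.

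A region is called gained when both libraries of the group named first had it open and neither of the other group did, and lost in the reverse case. On day 3, KO cells gained 6 of the 76 regions (7.89%) and lost 10 (13.2%) relative to WT cells, where 3.92% of all regions were gained and 4.22% lost. MUT cells gained 3 and lost 3 (3.95% each) relative to WT cells on day 3, against 1.89% and 1.94% of all regions. CHIR-treated WT cells gained 15 (19.7%) and lost 10 (13.2%) relative to untreated WT cells, against 11.0% and 9.02% of all regions. XAV-treated KO cells gained 2 (2.63%) and lost 4 (5.26%) relative to untreated KO cells, against 4.89% and 4.17%. At this cut-off the shares of the 7 genes were above those of all regions in both directions for KO, MUT and CHIR. For XAV the share was above that of all regions among lost regions and below it among gained ones. The KO, MUT and CHIR comparisons share the WT libraries, and the XAV comparison has the KO libraries as its reference. Since 2 libraries stand against 2, the lowest p that exact permutation could give is 0.333, and no p is given.

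Few of these calls held at other cut-offs on the peaks. With the 30000 highest-ranked peaks, or with every peak of −log10 q of at least 2, a region had to be called again in the same direction. The share of all gained or lost regions that held is not given. These counts thus do not say whether calls at the 7 genes held less often than calls at large. Of the 6 regions gained in KO cells, 1 held at both cut-offs (Pax7+79.1kb), and of the 10 lost, 0 held at either. Of the 15 gained with CHIR, 2 held at both (Pax3+80.6kb and Msx1-2.3kb), 4 at the stricter rank and 7 at the q cut-off. Of the 10 lost with CHIR, 1 held at both (Foxd3-14.0kb). Of the 4 lost with XAV, 1 held at both (again Pax7+79.1kb), and 0 of the calls between MUT and WT cells on day 3 held at either. All 10 regions lost in KO cells still had a weaker peak in both KO libraries, and all 3 lost in MUT cells had one in both MUT libraries.

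With 50000 kept peaks, fewer of the 76 regions were gained or lost between the genotypes on day 2 than on day 3. KO cells gained 0 and lost 4 of the 76 regions (5.26%) relative to WT cells, against 1.97% and 2.17% of all regions. The 4 were Pax7+75.9kb, Pax7+35.5kb, Pax7-18.6kb and Dlx3+6.7kb, and each still had a weaker peak in both KO libraries. MUT cells gained 0 and lost 0 on day 2, against 1.73% and 1.61% of all regions. Among regions open in all 4 libraries of a comparison, MUT cells had a lower percentile without overlap in 11 of 34 on day 2 (32.4%), against 14.7% of all such regions, and a higher one in 6 (17.6%), against 18.0%. On day 3 it was 4 lower and 4 higher of 31 (12.9% each), against 15.0% and 17.6%. By this measure MUT cells differed from WT cells in more regions on day 2.

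**Figure D2:**
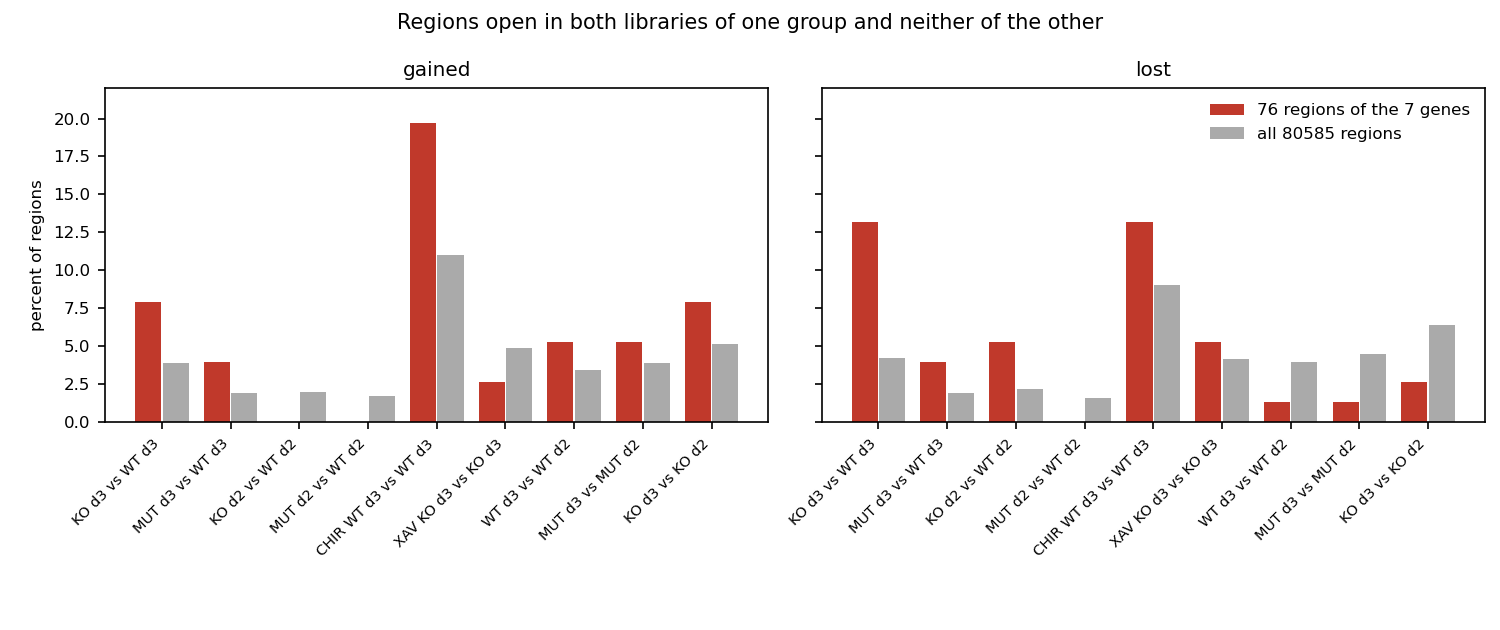
Percent of the 76 regions of the 7 genes (red) and of all 80585 regions (grey) that were gained (left) or lost (right) in each comparison of 2 libraries against 2. The tallest bar is the 19.7% gained with CHIR, against 11.0% of all regions, and MUT day 2 against WT day 2 has 0 of the 76 in either panel.

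Pax3, whose protein marks the border and later the dorsal neural tube and crest, had the same core of open regions in every group. Its TSS region (Pax3+0.1kb, chr1:78196781-78197376, an exon) was open in all 16 libraries at fold enrichments of 3.54 to 5.74. The intronic region Pax3+14.8kb (chr1:78181907-78182257) was also open in all 16 and had the highest values of the gene, 9.11 to 16.6. Pax3+7.1kb and Pax3-18.9kb completed the 4 regions of Pax3 open in every library. Between 6 and 10 of its 13 regions were open per library.

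What set the CHIR libraries apart at Pax3 was a pair of intronic regions. Pax3+80.6kb (chr1:78116063-78116365) had fold enrichments of 8.77 and 9.49 with CHIR, and neither a kept nor a weaker peak in any of the other 14 libraries. Pax3+55.0kb (chr1:78141656-78141974) had 6.74 and 7.57 with CHIR and no deposited peak in the other 14. Both regions are among the consensus regions only through the CHIR libraries, so this separation describes them and is no test. Since a peak list holds no counts, no fold difference can be given against libraries without a peak. Pax3+76.8kb went the other way, with weaker peaks of 3.90 and 4.87 with CHIR, against 9.35 and 7.67 in untreated WT cells. In that region XAV-treated KO cells had 8.20 and a weaker peak of 6.42, KO cells 8.05 and a weaker peak of 3.96, and MUT cells 6.12 and 9.15, so the CHIR libraries were the only day 3 group with neither open.

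The single region of Pax3 gained in KO cells, Pax3-3.3kb (chr1:78200232-78200544), upstream of the TSS, was weak. It had 3.79 and 3.46 in KO cells and weaker peaks of 3.15 and 3.08 in WT cells. In XAV-treated KO cells it had no peak and a weaker peak of 3.34. Its percentiles in KO cells were 1.1 and 2.5, at the foot of those libraries' kept peaks, and it was not gained at either other cut-off. In Pax3+56.1kb the KO libraries had 9.81 and 7.68, the XAV-treated KO libraries 6.51 and 6.44, and the WT libraries a weaker peak of 5.87 and an open one of 5.37. The KO libraries were thus the highest of day 3 there, but with one WT library open the region does not count as gained.

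Pax7, the close relative of Pax3, held the only region gained in KO against WT cells on day 3 whose call held at both other cut-offs. Pax7+79.1kb (chr4:139753658-139754097), in an intron, had fold enrichments of 6.33 and 5.75 in KO cells and of 6.01 and 5.53 in CHIR-treated WT cells on day 3. The lists of the other 12 libraries held no peak there, and these include both XAV-treated KO libraries of the same KO lines, both MUT and both WT libraries of day 3 and all 6 of day 2. The 4 libraries with a peak thus stand apart from the rest. The region is among the consensus regions only through those 4 libraries, so the gap describes it and is no test. The neighbouring Pax7+75.9kb was less clear. It had 5.68 and 5.75 in XAV-treated KO cells, 4.66 and 3.99 in KO cells, 5.06 and 4.89 with CHIR, a weaker peak of 5.01 and an open one of 5.54 in MUT cells, and weaker peaks of 4.13 and 3.75 in WT cells. On day 2 it was open in MUT (6.05 and 5.67) and WT cells (5.84 and 6.09), and had weaker peaks of 5.40 and 3.00 in KO cells. The weaker peak of 5.40 is higher than the open 3.99, which shows how the cut-off of a library sets its state.

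The Pax7 TSS region (Pax7+0.1kb, chr4:139832709-139833048, an exon) was open in 4 libraries. It had 4.26 and 3.59 in KO cells, a weaker peak of 3.45 and an open one of 4.02 with CHIR, and a weaker peak of 2.99 and an open one of 3.91 in WT cells on day 3. With XAV it had weaker peaks of 2.87 and 2.96, and across the 12 libraries in which it was not open the weaker peak ranged from 2.45 to 3.45. It was lost with XAV relative to KO cells and gained in KO cells between day 2 and day 3, but the lower KO value of 3.59 was close to the highest weaker peak of 3.45.

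Downstream in the Pax7 introns, 2 more regions were gained or lost in both KO and CHIR-treated cells. Pax7+14.6kb had 4.63 and 5.16 in KO cells, 4.24 and 4.62 with CHIR, weaker peaks of 3.57 and 3.23 in MUT cells and weaker peaks of 3.72 and 3.44 in WT cells. It stayed open with XAV (4.27 and 3.84). Pax7+21.8kb had weaker peaks in KO (4.07 and 3.75) and CHIR-treated cells (3.66 and 3.03) and was open in MUT (5.39 and 5.23) and WT cells (6.22 and 4.72). In both regions the day 3 fold enrichments of KO and of CHIR-treated cells did not overlap those of MUT and WT cells. On day 2 Pax7+14.6kb was open in replicate 2 of WT (5.04), MUT (4.56) and KO cells (3.92). Pax7+28.8kb had 6.52 and 6.29 with CHIR and no deposited peak in the other 14 libraries. Pax7+35.5kb had 8.03 and 7.22 with CHIR and 8.81 and a weaker peak of 4.02 in KO cells, but it was open in MUT cells (6.07 and 5.68) and in 1 WT library (6.77), and it counts as gained in neither comparison.

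Upstream of Pax7 the KO cells lost 2 regions and had a higher percentile than WT cells in 3. Pax7-18.6kb (chr4:139851959-139852390) was open in WT cells on day 3 (6.28 and 4.90) and had weaker peaks in KO (3.04 and 2.85), MUT (3.40 and 4.87) and XAV-treated KO cells (3.80 and 4.79). With CHIR it had a weaker peak of 4.90 and an open one of 6.49, values that overlap those of WT cells. It was also open in WT cells on day 2 (5.21 and 4.89), where KO cells had weaker peaks of 4.62 and 3.80. Pax7-51.8kb was open in WT cells on day 3 (6.58 and 5.59), with weaker peaks of 5.47 and 4.32 in KO, 2.92 and 2.99 in CHIR-treated and 5.78 and 4.57 in MUT cells. In that region the CHIR values lay farthest below WT, and the higher MUT value lay between the WT values. Pax7-17.5kb had weaker peaks of 4.82 and 5.17 with CHIR and 5.26 and 4.49 in WT cells, so its loss with CHIR was one of rank and the fold enrichments overlapped. In that region KO cells were above WT cells, with 6.91 and 5.33. Pax7-10.2kb had 7.47 and 7.21 in KO cells, against 7.06 and 5.86 in WT cells. Pax7-39.3kb had 6.03 and 5.86 in KO cells, against 6.00 and 4.34 in WT cells, where the percentiles do not overlap but the fold enrichments do. Pax7-25.3kb, Pax7-38.4kb, Pax7-39.3kb and Pax7-44.0kb were open in all 16 libraries.

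**Figure D3:**
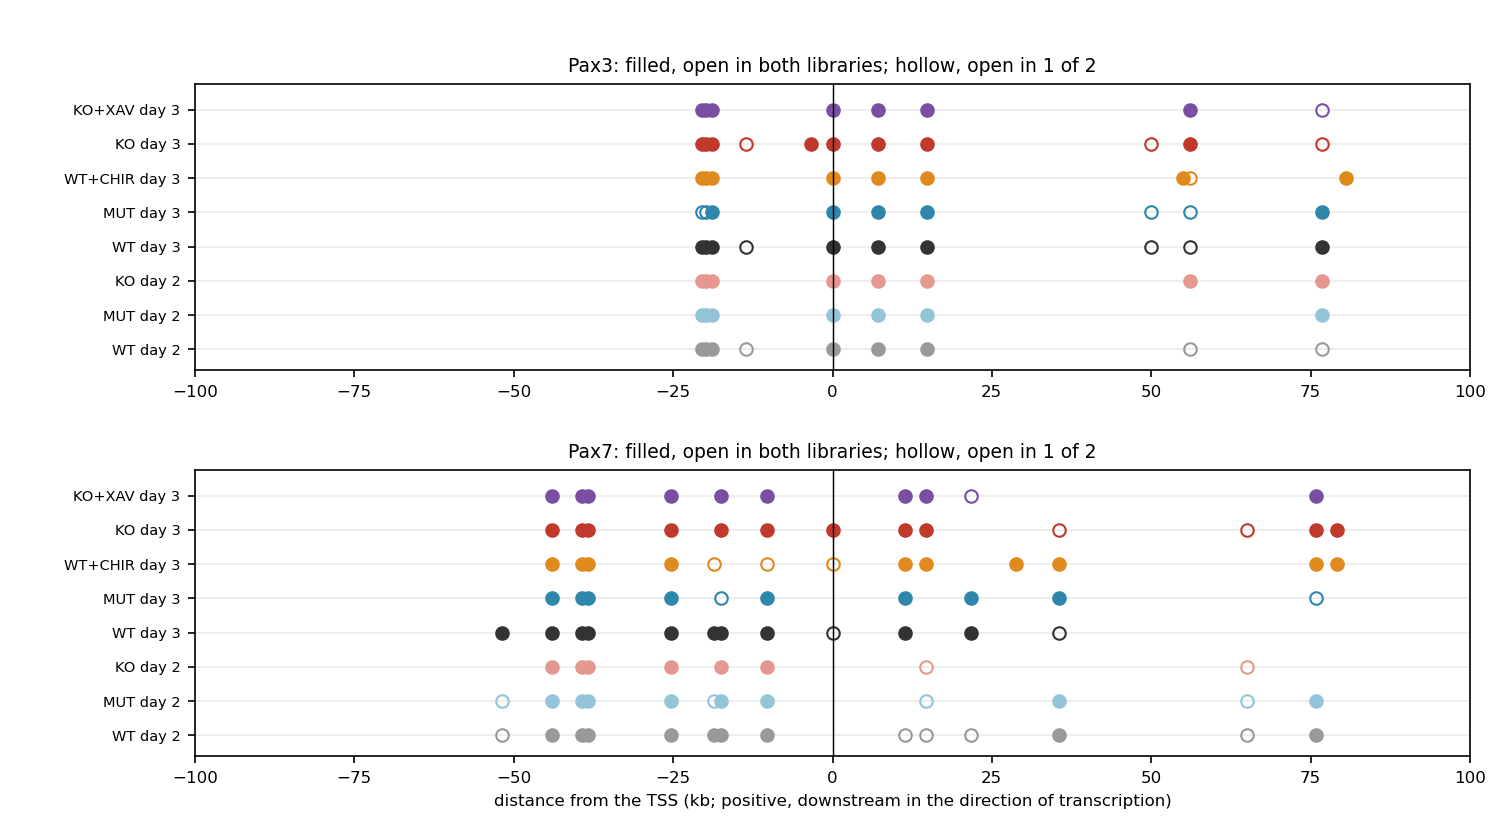
Open regions of Pax3 (top) and Pax7 (bottom) by distance from the TSS in kb (x axis), in each of the 8 groups (rows), filled where open in both libraries and hollow where open in 1 of 2. The Pax7 region at 79.1 kb is filled in the KO day 3 and CHIR rows and absent from the other 6, and the Pax3 regions at 55.0 and 80.6 kb are filled in the CHIR row alone.

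The number of open Pax7 regions also separated the days in KO cells. KO cells had 12 and 12 of 17 regions open on day 3 and 6 and 8 on day 2, a gain of 6 in line KO1 and 4 in line KO15. MUT cells had 8 and 10 on day 3 and 10 and 10 on day 2, and WT cells 10 and 12 on day 3 and 11 and 12 on day 2. The KO values of the days do not overlap, while the change in the MUT and WT lines was between −2 and 0. Of all regions, 63.2% and 61.4% were open in KO cells on day 3, and 65.1% and 62.4% on day 2. These counts carry no test, and Pax7 was the gene of the 7 with the largest such change. The lowest count of all was in KO day 2 replicate 1. The −log10 p at rank 50000 was 12.8 and 6.84 in the KO lines on day 3 and 21.8 and 9.93 on day 2, and it was also higher on day 2 in the MUT and WT lines. The part of that shift in the counts was not tested. The regions gained between the days in KO cells were Pax7+79.1kb, Pax7+75.9kb, Pax7+11.4kb and Pax7+0.1kb, and Pax7+79.1kb alone held at both other cut-offs.

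**Figure D4:**
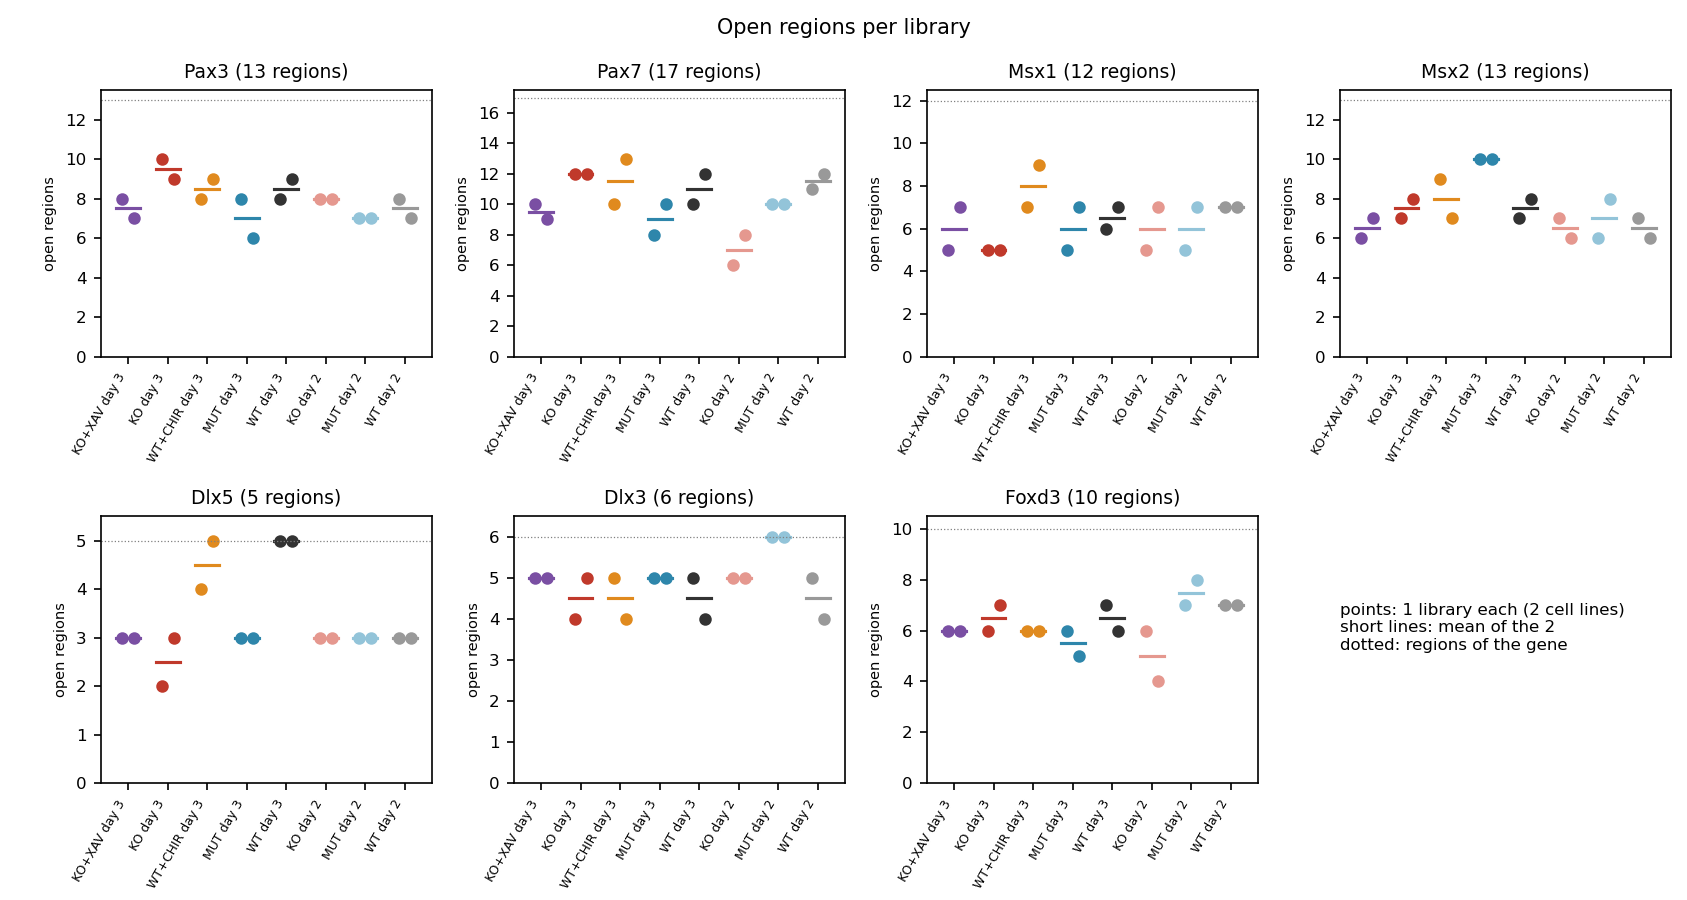
Number of open regions per library (y axis) in each of the 8 groups (x axis) for the 7 genes, with 1 point per library, a short line at the mean of the 2 and a dotted line at the number of regions of the gene. At Pax7 the 2 KO libraries of day 2 are at 6 and 8 and those of day 3 at 12 each, and at Dlx5 the WT libraries of day 3 are at 5 each.

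Msx1, a homeodomain factor induced by BMP and Wnt at the border, had its TSS region (Msx1-0.0kb, chr5:37824430-37824811, 38 bp upstream) open in all 16 libraries at 4.26 to 6.40. Between 5 and 9 of its 12 regions were open per library, and the highest count was in CHIR replicate 2. Of the 3 regions gained with CHIR, Msx1-2.3kb (chr5:37826738-37827052) had 3.95 and 4.53 with CHIR, and among the other 14 libraries it had a weaker peak of 1.70 to 3.12 in 12 and none in 2. Those ranges do not overlap, but the region is among the consensus regions only through the CHIR libraries. Msx1-71.0kb had 6.45 and 7.59 with CHIR, a weaker peak of 4.77 and an open one of 4.22 in KO cells, weaker peaks of 2.68 and 3.29 in XAV-treated KO cells and weaker peaks of 3.12 and 2.80 in WT cells. In that region the order on day 3 was CHIR, then KO, then the XAV-treated KO, MUT and WT libraries, which overlap each other. Msx1-69.1kb had 4.25 and 4.17 with CHIR and weaker peaks of 3.93 and 3.23 in WT cells.

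Upstream of Msx1, Msx1-11.5kb (chr5:37835841-37836252) was open in 14 libraries and had only weaker peaks with CHIR (3.79 and 4.48), against 7.40 and 6.59 in untreated WT cells. It had 6.31 and 7.35 in XAV-treated KO cells, 4.87 and 4.57 in KO cells, and 6.51 and 6.08 in MUT cells. The CHIR and KO libraries were the lowest 4 of day 3, and those of XAV-treated KO cells lay among the MUT and WT values. Msx1-5.5kb had no deposited peak with CHIR and weaker peaks of 2.59 and 2.64 in KO cells, against 4.96 and 5.23 in WT cells. Msx1-77.6kb had 7.08 and 6.44 in XAV-treated KO cells and weaker peaks of 4.82 and 2.50 in KO cells, so it was gained with XAV, and it had 6.37 and 5.91 in WT cells. In it, as at Dlx5-33.3kb, the KO libraries lay below both the XAV-treated KO libraries and the WT libraries. Msx1-24.7kb was open in KO day 3 replicate 1 (6.09) and CHIR replicate 2 (6.13) alone.

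Msx2, the second BMP-responsive homeodomain gene of the pair, had its TSS region (Msx2+0.2kb, chr13:53472676-53473003, an exon) open in all 16 libraries at 5.90 to 9.07. MUT cells had 10 and 10 of its 13 regions open on day 3, against 7 and 8 in WT cells, and the MUT libraries had 6 and 8 on day 2. Of all regions, 63.3% and 64.1% were open in MUT cells on day 3, and 65.0% and 63.9% on day 2. In WT cells on day 3 it was 64.1% and 63.2%. The 3 regions gained in MUT cells on day 3 were all at Msx2. Msx2-28.9kb had 6.95 and 7.72 in MUT cells and 6.82 and 6.85 with CHIR, against weaker peaks of 4.77 and 4.77 in WT cells. Msx2-38.6kb had 6.46 and 6.10 in MUT cells, against no peak and a weaker peak of 4.00 in WT cells. Msx2+10.5kb had 5.99 and 4.34 in MUT, 6.78 and 6.08 in KO and 5.80 and 6.17 in CHIR-treated cells, against weaker peaks of 4.11 and 3.60 in WT cells. WT cells of day 3 thus had the lowest values in Msx2+10.5kb, which was open in 13 of the 16 libraries, and in several of those libraries its kept peak is the same one as at the neighbouring Msx2+11.0kb.

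Other regions of Msx2 differed with CHIR. Msx2-90.6kb had 6.62 and 7.35 with CHIR, and of the other 14 libraries 12 had no deposited peak and 2 a weaker peak of 2.38 and 2.16. Msx2+17.5kb had 5.85 and 6.36 with CHIR and weaker peaks of 3.81 and 3.33 in WT cells. In both regions these values are apart, but the regions are among the consensus regions only through the CHIR libraries. Msx2-29.5kb had weaker peaks of 4.55 and 4.72 with CHIR, 4.66 and 3.12 in KO cells and 4.86 and 5.02 in XAV-treated KO cells, and was open in MUT (8.03 and 8.78) and WT cells (6.46 and 7.93). There the XAV-treated KO libraries stayed with the KO libraries, below WT. Msx2+8.3kb had weaker peaks of 3.40 and 3.17 with CHIR, against 5.19 and 4.50 in WT cells.

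Dlx5, a border and placode gene, had its TSS region (Dlx5+0.1kb, chr6:6881767-6882267, an exon) open in 15 libraries at 3.71 to 5.40, with a weaker peak of 3.15 in KO replicate 1 on day 3. All 5 of its regions were open in both WT libraries on day 3, against 3 and 3 on day 2, and in KO cells 2 and 3 were open on day 3. Of all regions, 64.1% and 63.2% were open in WT cells on day 3, and 65.1% and 63.0% on day 2. In KO cells on day 3 it was 63.2% and 61.4%. Dlx5-33.3kb (chr6:6915175-6915524) had weaker peaks of 5.15 and 4.32 in KO cells on day 3, against 7.96 and 5.67 in WT cells, and 7.60 and 9.79 in XAV-treated KO cells. It was open in both KO libraries on day 2 (7.79 and 5.57). The KO day 3 libraries were below all other 14, of which MUT day 3 replicate 2 was the lowest with a weaker peak of 5.49. Dlx5-3.0kb had 4.37 and 3.97 in WT cells, weaker peaks of 2.94 and 2.89 in KO and of 3.82 and 3.57 in MUT cells. Dlx5+3.0kb, lost with XAV, had weaker peaks of 2.86 and 2.56 in XAV-treated KO cells, against 3.60 and 3.10 in KO cells.

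Dlx3, expressed in the non-neural ectoderm beside the border, had its TSS region (Dlx3+0.1kb, chr11:95119917-95120449, an exon) open in 15 libraries at 3.94 to 6.25, with a weaker peak of 3.63 in WT replicate 2 on day 2. Between 4 and 6 of its 6 regions were open per library. Dlx3+6.7kb (chr11:95126605-95127023) had weaker peaks in both KO libraries on day 3 (3.95 and 2.59) and on day 2 (4.09 and 3.84), and with XAV (4.45 and 4.83). It had 5.18 and 5.00 in WT cells on day 3 and 5.45 and 6.10 on day 2, and 5.87 and 6.63 with CHIR. The 6 KO libraries, treated or not, come from the 2 lines KO1 and KO15 and lay below all WT libraries, CHIR-treated ones included. MUT cells had a weaker peak of 4.54, which lies within the KO values, and an open one of 5.18 on day 3. On day 2 they had 5.01 and 5.18. Dlx3-13.2kb had 5.56 and 5.07 in KO cells and 5.56 and 5.22 with CHIR, against weaker peaks of 3.92 and 3.30 in WT cells. It was open in 12 of the 16 libraries, among them those of XAV-treated KO cells (5.27 and 5.35). On day 2 it was open in both KO (5.09 and 5.12) and both MUT libraries (5.45 and 5.45). WT cells of day 3 were the only group with neither library open. Dlx3-19.5kb had weaker peaks of 4.11 and 4.62 with CHIR, against 4.94 and 4.31 in WT cells, values that overlap.

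Foxd3, a forkhead gene of pluripotent cells and the early crest, had no region within 1 kb of its TSS. The nearest, Foxd3+1.1kb (chr4:99657194-99657525, an exon), was open in 12 libraries at 3.63 to 4.43. Between 4 and 8 of its 10 regions were open per library. Foxd3-14.0kb (chr4:99642118-99642476) was open in all 14 libraries without CHIR, at 7.70 to 11.0. With CHIR it had a weaker peak of 2.92 and no peak, against 9.23 and 7.70 in untreated WT cells, and it was the region of the 76 whose loss with CHIR held at both other cut-offs. Foxd3-66.2kb had 6.82 and 9.35 with CHIR and no peak in either WT library of day 3. Elsewhere a weaker peak of 3.22 to 5.50 was deposited in 5 of the 14 libraries, so the CHIR values lay above all others. That region, too, is among the consensus regions only through the CHIR libraries. Foxd3-71.9kb was open with CHIR (9.10 and 8.97) and in WT cells (6.58 and 5.67) and had weaker peaks of 6.12 and 2.52 in KO cells, whose higher value lies between the WT values.

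**Figure D5:**
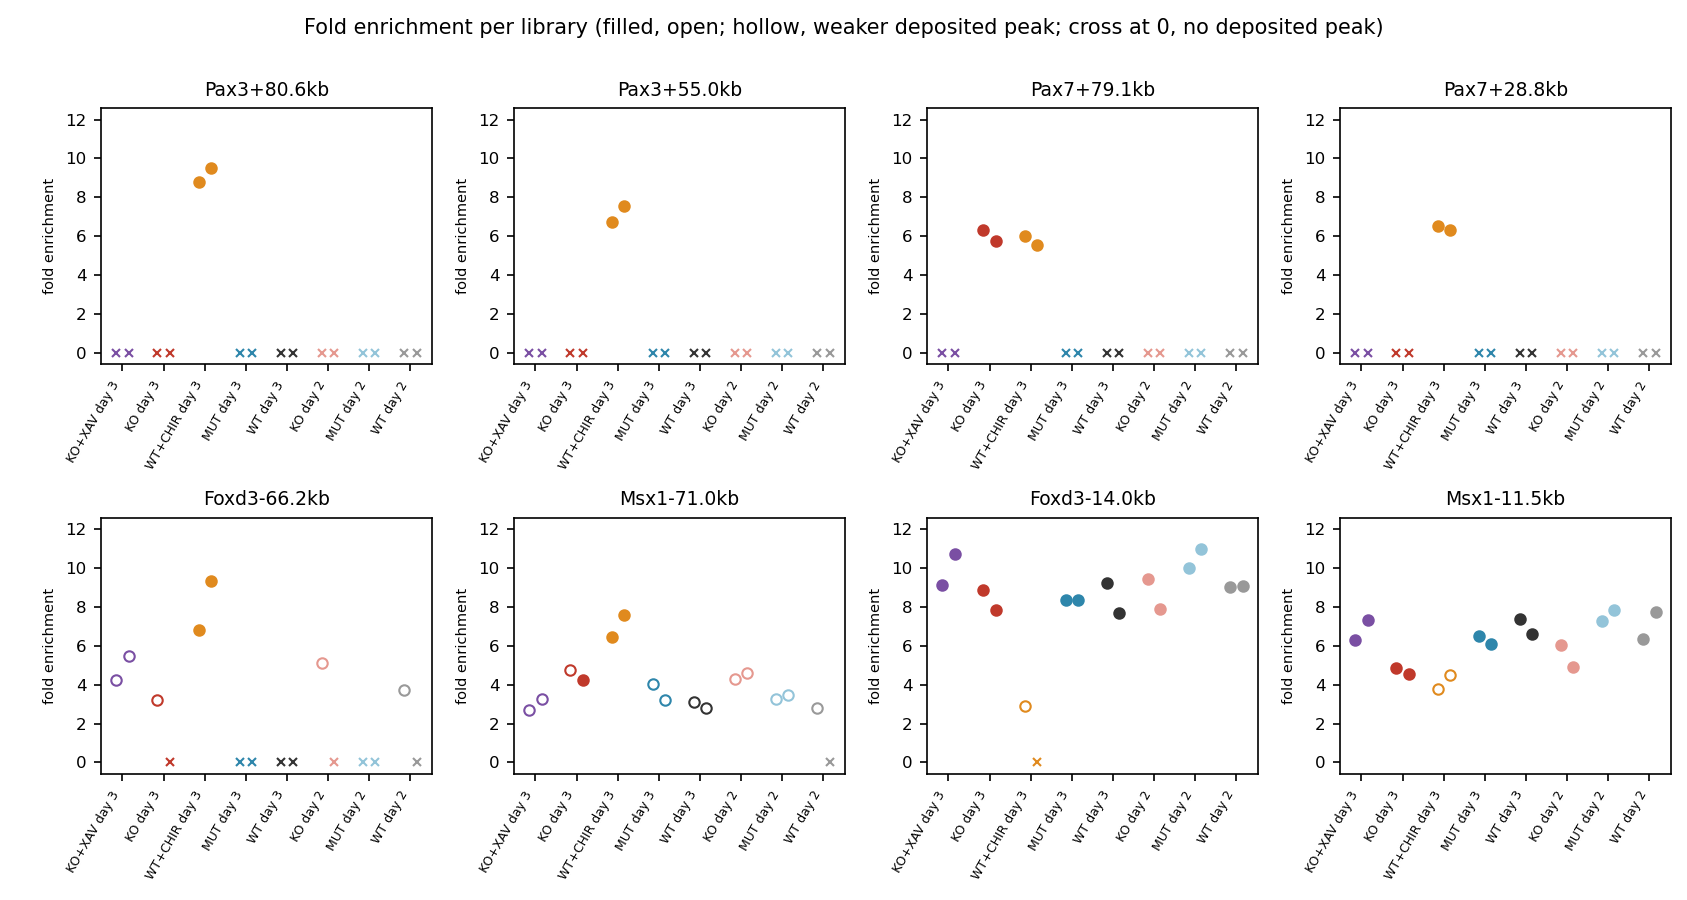
Fold enrichment (y axis) per library in the 8 groups (x axis) for 8 regions, as filled points where open, hollow points for a weaker peak and a cross at 0 where the list held no peak. In Pax3+80.6kb, Pax3+55.0kb and Pax7+28.8kb the 2 CHIR libraries alone have a peak, in Pax7+79.1kb the 2 KO day 3 and the 2 CHIR libraries alone, and in Foxd3-14.0kb the 2 CHIR libraries alone are not open.

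Across the 7 genes, 8 of the 76 regions (10.5%) were open in both CHIR libraries and in none of the other 14, against 6.79% of all regions. These regions entered the consensus through the 2 CHIR libraries alone, so the count describes them and is no test, and regions gained with CHIR include them. They were 2 each at Pax3, Msx1 and Msx2 and 1 each at Pax7 and Foxd3, with 0 at Dlx5 and Dlx3. The MUT libraries, of clones of the line of CHIR replicate 1, were among the 14. Of the 15 regions gained with CHIR, 6 had no deposited peak in either WT library. The TCF/LEF letters stood in the windows of 6 of those 15 (40.0%), namely Msx2-90.6kb, Pax7+28.8kb, Pax7+14.6kb, Msx1-2.3kb, Msx1-69.1kb and Msx1-71.0kb. They stood in 26.3% of all regions gained with CHIR, in 10.9% of all regions and in 8 of the 76 (10.5%). The TEAD letters stood in 4 of the 10 regions lost with CHIR (40.0%), against 30.6% of all regions lost with CHIR and 18.4% of all regions. Pax3+80.6kb and Pax7+79.1kb hold no TCF/LEF letters within their windows. A match is a description of the letters and not of a bound site.

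Day 3 was set against day 2 over the KO, MUT and WT libraries together (6 against 6) with a two-sided exact permutation test of the mean percentile in every region. Of the 76 regions, 2 were higher on day 3 and 1 lower at an adjusted p of 0.0484 (Benjamini-Hochberg over all 80585 regions), where 1.86% of all regions were higher and 2.61% lower. Dlx3-14.5kb had percentiles of 11.8 to 46.7 on day 3 (median 31.7) and of 0.0 to 10.5 on day 2 (median 6.5), a difference in means of 25.2. Pax7-25.3kb had 84.3 to 88.6 on day 3 (median 87.5) and 60.9 to 80.6 on day 2 (median 77.0), a difference of 12.3. Dlx3-19.5kb had 0.0 to 9.7 on day 3 (median 6.2) and 10.6 to 36.3 on day 2 (median 16.3), and fell by 13.3. The ranges of the days do not overlap in any of the 3. The smallest p that 924 splits allow is 0.00216, so the adjusted value depends on how many of all regions reach it. The calls were lost at an adjusted p of 0.0898 with 30000 peaks and 0.0508 when the summit had to lie in the region. With cell line as a block (sign flips) the adjusted p was 0.227. That block allows few sign flips, so a large share of all regions would have to reach its smallest p for any to pass. It therefore cannot decide these calls. With 1 library left out at a time, 1 region passed without WT day 3 replicate 1 and 0 without any of the others, where fewer splits are available. With the q cut-off 5 regions passed. Without adjustment, 12 of the 76 were higher on day 3 at p under 0.05 (15.8%, against 11.1% of all regions) and 2 lower (2.63%, against 9.18%).

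Within each genotype, KO cells gained 6 of the 76 regions between the days (7.89%) and lost 2 (2.63%), against 5.16% and 6.41% of all regions. MUT cells gained 4 (5.26%) and lost 1 (1.32%), against 3.92% and 4.49%. WT cells gained 4 (5.26%) and lost 1 (1.32%), against 3.46% and 3.96%. Among regions open in all 4 libraries of a genotype, the percentile was higher on day 3 without overlap in 11 of 31 in KO, 9 of 30 in MUT and 10 of 33 in WT cells, against 25.6%, 29.9% and 28.2% of all such regions. At this cut-off the 7 genes had a share of gained regions above that of all regions in all 3 genotypes and a share of lost regions below it. Each of these shares rests on 1 to 6 regions. With the q cut-off WT and MUT cells gained 0 and lost 1 each, so this direction did not hold there. The regions gained in WT cells were Msx2+8.3kb, Msx2-29.5kb, Dlx5+3.0kb and Dlx5-3.0kb, and those gained in MUT cells Msx2-28.9kb, Msx2-38.6kb, Pax7+21.8kb and Pax7+11.4kb. Of these 8 calls, 0 held at either other cut-off.

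KO and CHIR-treated WT cells (4 libraries) were also compared over day 3 with the 6 libraries of XAV-treated KO, MUT and WT cells, a split chosen with earlier results of these data known. No region of the 76, and 0.0% of all regions, passed an adjusted p of 0.05. The smallest adjusted p was 0.136, since 2827 regions reached the smallest p that 210 splits allow (0.00476) and 7675 would have been needed. Without adjustment, 7 of the 76 were higher (9.21%, against 6.29% of all regions) and 3 lower (3.95%, against 7.22%). Pax7+79.1kb had percentiles of 12.0 to 46.4 in KO and CHIR-treated cells (median 23.4) and of 0.0 in the other 6, and Pax7+14.6kb 3.8 to 35.2 (median 4.8) against 0.0 to 3.0 (median 0.0). Msx1-11.5kb had 0.0 to 16.9 (median 3.2) in KO and CHIR-treated cells and 21 to 43.9 (median 37.0) in the other 6. Pax7+14.6kb and Msx1-11.5kb reached the smallest p of 0.00476 by the exact permutation test, with no overlap of percentiles between the groups. By fold enrichment the groups overlap at Pax7+14.6kb, with 4.24 in CHIR replicate 1 and 4.27 in XAV-treated KO replicate 1. No p is read for Pax7+79.1kb or Msx1-71.0kb, which are among the consensus regions only through KO and CHIR libraries. The count of 7 includes both of them. The lines KO1 and KO15 gave libraries to both sides, which this test treats as independent. Foxd3-94.6kb, open in all 16 libraries, had 75.3 to 86.6 (median 81.2) in KO and CHIR-treated cells and 32.4 to 68.1 (median 58.3) in the other 6, also without overlap, at an unadjusted exact p of 0.00952.

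XAV-treated KO cells were also compared with KO cells in regions that were open in all 4 libraries. Of 35 such regions of the 7 genes, 15 (42.9%) had a lower percentile with XAV without overlap and 2 (5.71%) a higher one, against 24.6% and 17.2% of all such regions. By fold enrichment the balance turned, with 5 of the 35 lower (14.3%) and 8 higher (22.9%), against 5.19% and 36.1% of all such regions. The balance of these counts thus depends on the scale. On both scales the lower share lay above that of all such regions and the higher share below it. Without KO day 3 replicate 2, 17 of 35 had a lower percentile and 8 a higher one, against 35.8% and 37.0% of all such regions. Without KO day 3 replicate 1 it was 27 of 38 and 4. Pax3-19.8kb and Pax3-20.4kb, both among the 15, share a kept peak. In KO cells against WT cells on day 3, 8 of 31 were higher and 5 lower without overlap, against 17.8% and 16.5% of all such regions. By fold enrichment it was 3 and 4, against 5.88% and 22.5%. With CHIR against untreated WT cells, 8 of 28 were higher and 6 lower, against 22.1% and 23.4%. By fold enrichment it was 11 and 4, against 21.1% and 18.5%. In MUT against WT cells on day 3, 4 of 31 were higher and 4 lower, against 17.6% and 15.0%. KO day 3 replicate 2 ranked weak peaks higher than the other libraries did, with a median fold enrichment of 5.88 among its kept peaks. Without that library, 8 regions were gained and 13 lost in KO against WT cells on day 3, and 5 were gained and 8 lost with XAV against KO cells. With 1 library left out the rule is easier to meet, and no share of all regions is given for these counts.

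The 30 other border and crest genes of a list that includes Zic, Tfap2, Dlx, Snai and Sox genes gave a background of related genes. Of their 218 regions, 8 (3.67%) were gained and 9 (4.13%) lost in KO against WT cells on day 3, shares near the 3.92% and 4.22% of all regions. With CHIR 27 (12.4%) were gained and 24 (11.0%) lost, and with XAV against KO cells 13 (5.96%) and 8 (3.67%). The promoters of 23 to 27 of the 30 were open per library. Those shares and the shares of the 7 genes were not compared by a test.

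Markers of other cell types moved with the same groups. Of 5 primitive streak genes (Eomes, Mixl1, Gsc, Evx1 and Foxa2), the promoters of 5 were open in both KO libraries and both CHIR libraries on day 3, against 4 in both XAV-treated KO and both MUT libraries and 3 to 4 in WT libraries. Of the 54 regions of these genes, 13 (24.1%) were gained in KO and 13 (24.1%) with CHIR relative to WT cells, and 13 (24.1%) were lost with XAV relative to KO cells. Of 5 neuroectoderm genes, 4 had an open promoter in the MUT, CHIR and WT libraries of day 3, 4 with XAV and 3 to 4 in KO libraries. Of 5 epiblast genes it was 4 to 5 per library, of 4 extraembryonic endoderm genes 3 and of 4 fibroblast (feeder cell) genes 1, the same in every library for these last lists. Regions of these lists were gained and lost all the same. Of 19 fibroblast regions, 4 (21.1%) were lost in KO and 4 (21.1%) with CHIR relative to WT cells on day 3, and 4 (21.1%) were gained in WT cells between the days. Of 22 extraembryonic endoderm regions, 5 (22.7%) were gained with CHIR. Of 47 neuroectoderm regions, 8 (17.0%) were lost with CHIR and 7 (14.9%) gained with XAV relative to KO cells, and of 45 epiblast regions 6 (13.3%) were lost with CHIR and 5 (11.1%) with XAV. In bulk libraries a region open in more cells and a region more open in each cell cannot be told apart, and the part of these other cell types in the differences above was not tested.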

How the data were processed

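Chromatin accessibility was measured by omni-ATAC in 16 libraries, which GEO's labels place in 8 groups of 2 cell lines. By the study's methods the reads went through ENCODE's pipeline for ATAC-seq on mm10, and the authors deposited 1 peak list per library. It includes an aligner and a caller of versions not given in the sources used here, and replicate 2 lists of day 2 are named as merged without a word on what was merged. The deposited lists give for each peak a fold enrichment, a ratio of the summit to the local background. They also give a −log10 p and a −log10 q per peak as the authors' caller wrote them. Their names give a p-value threshold, so a place without a peak lies below it and need not lack reads. The lists hold no counts and read depth is unknown, so counting intervals were not computed. The submitters' processing notes also name DiffBind 3.0.15, HOMER 2 and deepTools 3.4.3. The other 2 deposited tables hold the authors' own comparison of KO with WT cells on day 3 and were not used.

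Of peaks with the same start and end the one with the highest −log10 p was used, and the top 50000 by −log10 p were kept per library. Summits were widened by 150 bp each way, overlapping windows of all libraries were joined, and the 80585 found in 2 or more libraries are the consensus regions (median width 343 bp). A region was open where a kept peak overlapped it by at least 1 bp. Regions were assigned by their middle to the nearest protein-coding TSS of GENCODE M21 within 100 kb. All regions lay within the chromosome of the same name in the RefSeq genome used for sequences.

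Differences in mean percentile were tested with two-sided exact permutation tests over libraries with Benjamini-Hochberg adjustment over all regions, in Python 3.11.15 with numpy 2.4.6, pandas 2.3.3 and scipy 1.17.1, tested on simulated data. The tests permute libraries, so libraries of the same line count as independent. Their p-values measure the spread between libraries and not between lines. The sample titles show that the same KO, MUT and WT lines were sampled on both days, so the line pairs the days. Deviations of a line from its group mean on day 3 and on day 2 correlated at 0.196 (KO), 0.003 (MUT) and 0.082 (WT), and cell line was a block in an alternative. The 7 genes, the other lists (30 border and crest genes; epiblast, neuroectoderm, primitive streak, extraembryonic endoderm and fibroblast markers), the motifs and the tests were chosen with earlier results of these data known. By rule, regions were named with values where they lay within 1 kb of a TSS, were gained or lost in a day 3 comparison or in KO against WT cells on day 2 (at most 4 per gene and comparison), or passed an adjusted p of 0.05. Other regions are named where they complete a count or adjoin a named region, chosen after their values were seen. Alternatives were 30000 kept peaks, a −log10 q of at least 2, the summit inside the region, a TSS window of 50 kb, the 5′ end of each gene as the only TSS, the fold enrichment over the library median, the cell line block and leaving out each library. One further marker list is not reported here. An alternative that counts regions sharing a kept peak once and one that takes fold enrichment in place of its percentile were added after seeing the data.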

Additional observations from a re-analysis of the deposited data

Results flagged for a closer look

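In 2 of 32 groups of libraries tested, 1 library lay far from the others in its number of open regions, and chance alone flags about 1 in 20 groups. Among the WT, MUT and XAV-treated KO libraries of day 3, WT replicate 2 had 4 open regions at Dlx3 and the others 5 each. Among the KO and CHIR-treated WT libraries of day 3, KO replicate 2 had 7 open regions at Foxd3 and the others 6 each. Both differ by a single region.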

How the results depend on the processing

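The counts of gained and lost regions depended most on the cut-off on the peaks. No shares of all regions are given for the gained and lost counts at the other settings. With 30000 peaks per library, KO against WT cells on day 3 gave 3 gained and 2 lost, MUT against WT cells on day 3 1 lost, KO against WT cells on day 2 2 gained and 2 lost, MUT against WT cells on day 2 1 gained, CHIR-treated against untreated WT cells 7 gained and 6 lost, XAV-treated against untreated KO cells 1 gained, MUT cells between the days 0 lost, and the day test 0 regions. With a −log10 q of at least 2, KO against WT cells on day 3 gave 3 gained and 1 lost, MUT against WT cells on day 3 1 gained, KO against WT cells on day 2 2 lost, MUT against WT cells on day 2 1 gained and 1 lost, CHIR-treated against untreated WT cells 8 gained and 4 lost, XAV-treated against untreated KO cells 0 gained and 2 lost, WT and MUT cells between the days 0 gained each, KO cells between the days 3 gained and 0 lost, and the day test 5 regions. With the summit inside the region, MUT against WT cells on day 2 gave 1 lost, MUT cells between the days 0 lost, and the day test 0 regions. With a TSS window of 50 kb, which leaves fewer regions, CHIR-treated against untreated WT cells gave 7 gained, XAV-treated against untreated KO cells 1 gained, and WT cells between the days 0 lost. The causes of the other shifts were not tested. With 1 library left out, which makes the rule easier to meet, there were 8 to 9 gained and 10 to 13 lost in KO against WT cells on day 3, 4 to 5 gained and 4 to 9 lost in MUT against WT cells on day 3, 0 to 4 gained and 6 to 8 lost in KO against WT cells on day 2, 0 to 5 gained and 1 to 4 lost in MUT against WT cells on day 2, 15 to 17 gained and 11 to 14 lost in CHIR-treated against untreated WT cells. There were 2 to 5 and 5 to 9 in XAV-treated against untreated KO cells, 4 to 9 and 3 to 4 in WT cells between the days, 4 to 7 and 3 to 7 in MUT cells between the days, 7 to 10 and 2 to 5 in KO cells between the days. The day test gave 0 to 1 regions with 1 library left out, and the test of KO and CHIR-treated cells against WT, MUT and XAV-treated KO cells 0 to 0. The balance of gained and lost regions turned in several comparisons. KO against WT cells on day 3 had more lost than gained regions as reported and more gained than lost with either other cut-off on the peaks, and WT and MUT cells between the days had 0 gained and 1 lost each with the q cut-off. In XAV-treated against untreated KO cells, regions open in all 4 libraries without overlap were 5 lower and 8 higher by fold enrichment, against 15 and 2 by percentile, and 17 to 27 lower and 3 to 8 higher with 1 library left out, alternatives chosen after seeing the data. Of all such regions, 35.8% to 49.0% were lower and 26.8% to 37.0% higher with 1 library left out.

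With cell line as a block (sign flips within the 6 lines sampled on both days), 0 regions passed in the day test, with a smallest adjusted p of 0.227. The sign flips of 6 lines are few, so a large share of all regions would have to reach the smallest p for any to pass. This alternative therefore cannot decide the day test. No pairing by replicate number was possible between KO, MUT and WT cells of one day, which are separate lines.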
